A study of Mus musculus with 6 samples.

Results

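The genes described here are 10 genes of the integrated stress response and of the serine and one-carbon pathways under its control, namely Atf4, Atf5, Ddit3, Trib3, Asns, Mthfd2, Psat1, Shmt2, Fgf21 and Gdf15. They were chosen by name, as the transcription factor ATF4 and genes around it that are known to respond to mitochondrial or amino acid stress, and 11 of the 54532 rows of the count table carried one of these names. The additional row is a second Ddit3 entry of 105 bases with 0 counts in every heart. RNA was sequenced from whole hearts of 6 male C57BL/6 mice aged 3 months, and the question was whether the level of these genes differed with the affinity of the Na/K-ATPase α1 subunit for cardiotonic steroids (CTS). The 3 hearts labelled Na/K-ATPase a1r/ra2s/s (resistant), from mice 368, 369 and 370, carried the rodent α1 of low affinity. The 3 hearts labelled a1s/sa2s/s (sensitive), from mice 379, 380 and 381, carried an α1 made sensitive to CTS by amino acid substitutions. Both groups had the CTS-sensitive α2, and no treatment was given in the labels. The substitutions were made in the mouse's own α1, so they were not limited to cardiomyocytes. The total count was between 19309312 and 20470065 per heart.

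The integrated stress response is a signalling pathway in which kinases phosphorylate the translation factor eIF2, which lowers protein synthesis in general and raises the translation of Atf4 mRNA. ATF4 then induces genes of amino acid synthesis and transport, of serine synthesis and of the mitochondrial folate cycle, together with Ddit3 and Trib3. In heart muscle with impaired mitochondria the pathway is known for raised one-carbon enzymes and for secretion of the hormones FGF21 and GDF15. Because ATF4 is controlled in large part at translation, the counts measure its mRNA and not the activity of the protein.

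The hearts had the RNA of heart muscle. All 6 cardiomyocyte markers examined were detected in every heart, and Myh6, the main myosin of the adult mouse heart, had a length-normalized level of 3613 FPKM (CPM, which are counts scaled to library size, divided by the gene length in kilobases, as a mean of the 6 hearts). Whole hearts hold several cell types, so fewer cells of a type and less RNA per cell cannot be told apart in any of the values below.

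No difference between the resistant and sensitive hearts was detected for these 10 genes. A total of 9 had enough counts to be tested, and 0 of these 9 differed between the genotypes in edgeR's quasi-likelihood test (threshold 0.05 on the adjusted p), whereas 1.44% of the 14866 genes tested did so (0.78% higher and 0.659% lower in sensitive hearts). An unadjusted p under 0.05 was found for 0 of the 9, against 14.5% of all genes tested. DESeq2 also called 0 of them, although it gave an adjusted p to only 4 of the 9. The log2 fold change (log2FC) of sensitive over resistant hearts was below 0 for 6 of the 9, against 51.6% of all genes tested, with a median of -0.12 against -0.01 for all genes. The hearts of the genotypes did not overlap in normalized level for 1 of the 9, Mthfd2, against 20% of all genes tested. With only 9 genes tested, these shares cannot tell whether the set is like or unlike the rest of the transcriptome, and this was not tested.

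**Figure D1:**
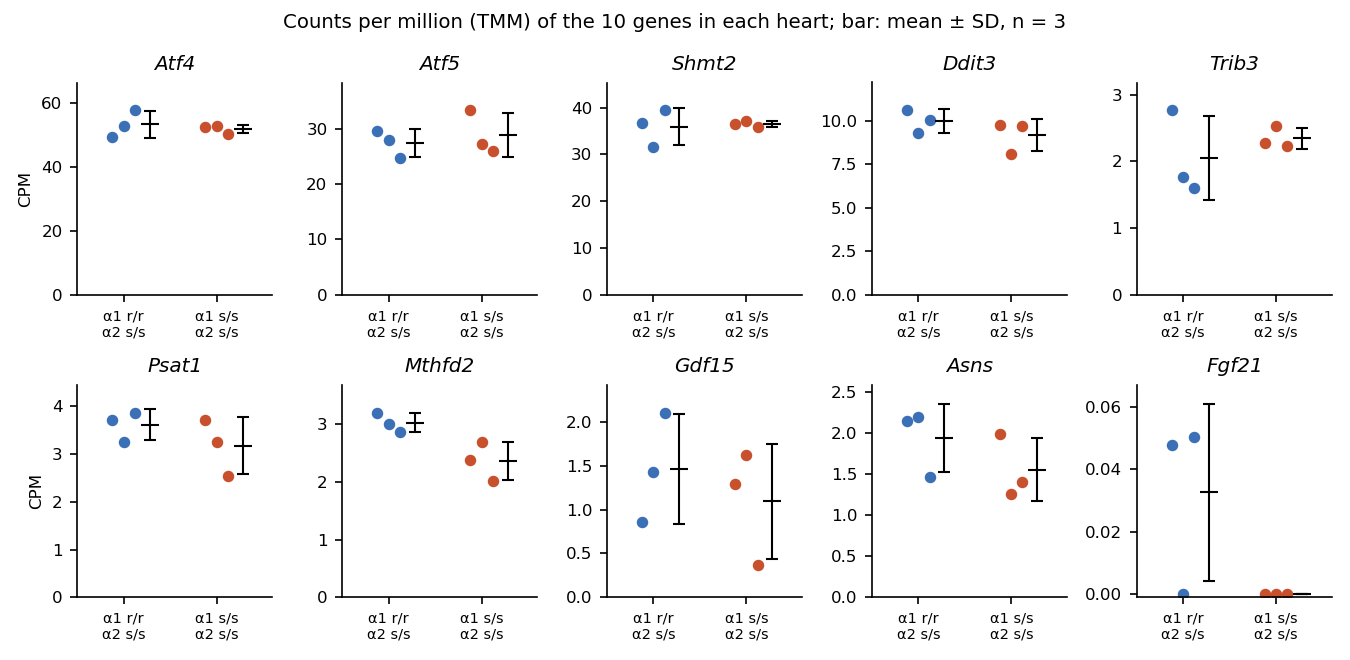
Normalized counts (CPM, scaled to library size by TMM, vertical axis from 0) of each of the 10 genes in each heart, with resistant hearts in blue and sensitive hearts in orange, and the mean ± SD of 3 hearts as a bar beside the points. The genotypes overlap for each gene except Mthfd2, whose sensitive hearts sit at 2.02 to 2.68 CPM and resistant hearts at 2.86 to 3.20 CPM; Fgf21 has at most 1 count in any heart.

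Atf4 (ENSMUSG00000042406, GRCm38 chr15:80255184-80257541, plus strand) encodes the transcription factor at the centre of the response and was the most abundant of the 10 per length, at 22.4 FPKM. Its counts were 1037, 1110 and 1152 in the resistant hearts of mice 368, 369 and 370, and 1062, 1004 and 974 in the sensitive hearts of mice 379, 380 and 381. The highest value was in a resistant heart, and the ranges overlapped. Normalized, the level was 53.5 ± 4.20 CPM in resistant and 52.0 ± 1.30 CPM in sensitive hearts (SD, n = 3). Between the genotypes the log2FC was -0.04 (standard error 0.08, adjusted p = 0.87), and its 95% interval of -0.21 to 0.13 corresponds to a fold between 0.865 and 1.09. A change in Atf4 mRNA larger than these bounds was thus outside the interval.

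Atf5, a related factor that is known to act in the mitochondrial stress response, had 618, 586 and 491 counts in resistant hearts and 671, 516 and 501 in sensitive hearts. The sensitive heart 379 was the highest of the 6 and the resistant heart 370 the lowest, with the other hearts between them in both genotypes. Sensitive over resistant, log2FC was 0.07 (95% interval -0.16 to 0.31, adjusted p = 0.814). Ddit3, which encodes CHOP, a factor induced in prolonged stress, had 222, 194 and 200 counts in resistant hearts and 196, 154 and 187 in sensitive hearts. Heart 380 was the lowest, and the others overlapped. For Ddit3 the log2FC came to -0.12 (95% interval -0.42 to 0.18, adjusted p = 0.75), and with one heart left out it lay between -0.17 (without heart 369) and -0.03 (without heart 380).

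Trib3, a pseudokinase induced by ATF4 and CHOP that dampens their activity, was a gene of low level in these hearts. It had 58, 37 and 32 counts in resistant hearts and 46, 48 and 43 in sensitive hearts. The resistant hearts held both the highest and the lowest value, with all sensitive hearts between. Its log2FC of 0.19 was smaller than its standard error (0.31, adjusted p = 0.824), and the spread among resistant hearts was 30.7% of the mean, where counting error alone gives 15.4%. With one heart left out the log2FC of Trib3 lay between 0.05 (without heart 370) and 0.48 (without heart 368).

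The enzymes of the set did not pass the test either. Asns, the asparagine synthetase that is among the best known targets of ATF4, had 45, 46 and 29 counts in resistant hearts and 40, 24 and 27 in sensitive hearts. One heart of each genotype departed from the other pair, heart 370 downward and heart 379 upward, so the groups overlapped. Its log2FC was -0.32 with a standard error of 0.34 (adjusted p = 0.717), and it lay between -0.54 (without heart 379) and -0.19 (without heart 380) with one heart left out. Psat1, an aminotransferase of serine synthesis, had 78, 68 and 77 counts in resistant hearts and 75, 62 and 49 in sensitive hearts. The lowest value was in the sensitive heart 381, and after normalization the other sensitive hearts lay within the resistant range. For Psat1 the log2FC was -0.18 (standard error 0.24, adjusted p = 0.777), with a range of -0.31 (without heart 379) to -0.05 (without heart 381).

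The mitochondrial folate cycle was represented by Shmt2, which passes the carbon of serine to folate, and Mthfd2, which oxidizes the product. Shmt2 had 767, 663 and 785 counts in resistant hearts and 737, 707 and 692 in sensitive hearts. The sensitive hearts all lay within the range of the resistant ones, and the log2FC was 0.03 (95% interval -0.17 to 0.22, adjusted p = 0.929). Mthfd2 (GRCm38 chr6:83305691-83325908, minus strand) had 67, 63 and 57 counts in resistant hearts and 48, 51 and 39 in sensitive hearts, which is 3.20, 3.01 and 2.86 CPM against 2.38, 2.68 and 2.02 CPM. Every sensitive heart was below every resistant heart. Even so, Mthfd2 with its log2FC of -0.36 (standard error 0.26, 95% interval -0.91 to 0.20) did not pass the test (adjusted p = 0.567). Counting error alone was 12.7% of the mean in resistant and 14.7% in sensitive hearts, and the spread measured between hearts was 5.55% and 14.0%.

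Of the hormone genes, Fgf21 was at the lower limit of detection and Gdf15 was detected in every heart. Fgf21 (GRCm38 chr7:45613886-45615490, minus strand), a hormone of the liver that stressed heart muscle can also secrete, had 1, 0 and 1 counts in resistant hearts and 0 in each sensitive heart. A count of 0 allows up to 3 counts, or 0.149, 0.158 and 0.156 CPM in the sensitive hearts of mice 379, 380 and 381, with counting error alone considered. Both genotypes were under that floor, so Fgf21 was not tested and no fold is given.

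Gdf15 (GRCm38 chr8:70629393-70632456, minus strand), a stress hormone of the TGF-β superfamily, varied most among the genes tested here. It had 18, 30 and 42 counts in resistant hearts and 26, 31 and 7 in sensitive hearts. Heart 381 was the lowest by far, and the remaining sensitive hearts lay inside the resistant range. The spread between hearts was 42.7% of the mean in resistant and 59.9% in sensitive hearts, above the 18.3% and 21.7% that counting error gives. Gdf15 had a log2FC of -0.42 with a standard error of 0.49 (adjusted p = 0.75). With one heart left out it lay between -0.81 (without heart 380) and -0.0037 (without heart 381), and it was -0.69 without heart 368 and -0.06 without heart 370.

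Per length, and as a mean of the 6 hearts, the order of the levels was Atf4 at 22.4 FPKM, Atf5 at 14.1, Shmt2 at 11.7, Ddit3 at 5.59, Trib3 at 1.03, Psat1 at 0.798, Mthfd2 at 0.772, Gdf15 at 0.692, Asns at 0.637 and Fgf21 at 0.0172. The ranges over the 6 hearts overlapped between the neighbours Atf5 and Shmt2, and between each pair of neighbours from Trib3 to Asns, so the order within those stretches is not resolved. The steps from Atf4 to Atf5, from Shmt2 to Ddit3, from Ddit3 to Trib3 and from Asns to Fgf21 were free of overlap. On the same scale the level of Atf4 was above that of 90.2% of the genes tested, that of Atf5 above 84.3% and that of Shmt2 above 81.2%. The level of Ddit3 was above that of 65.2%. The level of Asns was above that of 18.4% only and that of Mthfd2 above 21.3%. Atf4, Atf5 and Shmt2 were thus well expressed in these hearts, with Ddit3 below them. Asparagine synthesis, serine synthesis, Mthfd2 and the hormones were represented by few transcripts in both genotypes.

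Some reads of these genes could not be assigned without doubt. Ddit3 shares 105 exon bases with its second entry on the same strand, whose length is 105 bases, so reads there are ambiguous under any strand setting. The strand setting of the counting was not stated, which adds overlaps with genes on the opposite strand. Ddit3 shares 68 exon bases with Mars on the opposite strand (630 to 774 counts per heart), Shmt2 shares 32 with Ndufa4l2, and Atf5 shares 82 with Nup62 and 82 with Il4i1. Psat1 has a processed pseudogene, Gm12611, that is 91.0% identical over 1056 bases and had 0 to 1 counts per heart. A pseudogene of Shmt2, Gm15544, had 0 counts in all of them.

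ATF4 is known to bind, as a dimer with C/EBP factors, a composite element with the core TGATGNAA, and the promoters of the 10 genes were searched for it on both strands. All 10 genes matched an entry in the RefSeq promoter table (GRCm38.p6, windows of 300 bases around each start). The core was present in 3 of the 10, Trib3, Asns and Fgf21, against 4.51% of all 27025 genes in the table. The exact form TGATGCAA was in 1, Fgf21, against 1.03% of all genes. The stretches below are shown because they hold these matches, so that the core of genes at different levels can be compared. Each reads 5′ to 3′ on the strand of the gene, which is the minus strand in all of them, with the match in capitals. In Trib3 and Fgf21 the core is on the opposite strand and appears as its reverse complement. The positions are chr2:152344028-152344057 for Trib3, chr6:7693214-7693243 for Asns and chr7:45615611-45615640 for Fgf21. Counted from the start, the match begins at 14 for Trib3, -23 for Asns and -139 for Fgf21. The last 30 bases of the Trib3 window were found in 0 of its transcripts, so the start used for Trib3 was not verified.
Trib3: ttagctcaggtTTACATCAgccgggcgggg
Asns: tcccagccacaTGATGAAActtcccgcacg
Fgf21: agacccccccaTTGCATCAtccgtccaggc
A match describes these letters and is not a measured binding site. The 3 genes that hold one had mean levels of 1.03, 0.637 and 0.0172 FPKM, and their log2FC were 0.19 for Trib3 and -0.32 for Asns, with Fgf21 not tested.

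The wider pathway was examined through 8 lists of genes that act upstream of, beside or downstream of the 10. The lists share some genes (Atf6, Xbp1, Atf3, Nupr1 and Oma1), so the shares given per list below are not independent of each other. Apart from the 10 themselves they held 144 genes, of which 136 were tested, and 4 passed the threshold (2.94%, against 1.44% of all genes tested). An unadjusted p under 0.05 was found for 23 of the 136 (16.9%, against 14.5% of all genes tested). Of the 4 past the threshold, 3 rose in sensitive hearts (Sqstm1, Slc38a2 and Herpud1) and 1 fell (Ret). Without heart 368, only 1 list gene was past the threshold in place of 4. Over all genes, 214 passed with the 6 hearts and 80 to 158 with one heart left out, the fewest without heart 368.

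Upstream, the list of kinases, subunits and phosphatases of eIF2, which also holds the regulators Impact, Gcn1l1, Oma1 and Dele1, gave no call. In edgeR 0 of 19 genes passed, against 1.44% of all genes tested. An unadjusted p under 0.05 was found for 4 (21.1%, against 14.5% of all genes tested), and DESeq2 called 0. The log2FC was 0.08 for Eif2ak1, the kinase activated by haem deficiency, 0.13 for Eif2ak4, activated by amino acid shortage, and -0.06 for Eif2ak3, activated by unfolded proteins in the endoplasmic reticulum. Eif2ak2, the kinase activated by double-stranded RNA, had 418, 491 and 393 counts in resistant hearts and 348, 296 and 317 in sensitive hearts. The genotypes did not overlap for 7 of the 19 genes, Eif2ak2 among them, against 20% of all genes tested. Of these 7, 2 were lower in sensitive hearts. The log2FC of Eif2ak2, -0.36 (standard error 0.11), did not pass the test (adjusted p = 0.129). Ppp1r15a, the stress-induced phosphatase subunit that is itself a target of the pathway, had a log2FC of 0.09 and its constitutive relative Ppp1r15b one of -0.03. Eif2b4, of the exchange factor of eIF2, and Ppp1ca, a catalytic phosphatase subunit with the highest level per length of the list (123 FPKM), had log2FC of 0.26 and 0.20 (adjusted p = 0.205 and 0.216).

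Among the partners of ATF4 and other stress-related transcription factors, 0 of 11 genes tested passed in edgeR, against 1.44% of all genes tested. An unadjusted p under 0.05 was found for 3 (27.3%, against 14.5% of all genes tested), and DESeq2 called 0 of the 10 to which it gave an adjusted p. Cebpb, which dimerizes with ATF4, came nearest. Its counts were 402, 704 and 542 in resistant hearts and 730, 699 and 972 in sensitive hearts. After normalization the highest resistant heart, at 33.6 CPM, was below the lowest sensitive heart, at 36.2 CPM. Cebpb had a log2FC of 0.62 (standard error 0.17, adjusted p = 0.0828). It was past the threshold without heart 369 (adjusted p = 0.0212) and when all genes with a count were tested (adjusted p = 1.2e-07), and over all alternatives the adjusted p reached up to 0.33. Cebpg, another partner, had a log2FC of 0.22 and Atf6, a sensor of unfolded proteins, one of 0.18 (adjusted p = 0.271 and 0.317).

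Of 25 further targets of ATF4 that were tested, 2 rose and 0 fell, against 0.78% and 0.659% of all genes tested. A further measure, an unadjusted p under 0.05, was met by 7 of the 25 (28%, against 14.5% of all genes), and the median log2FC was 0.04. Of these 7, Pycr1 and Aldh18a1 had a log2FC below 0 (-0.95 and -0.40, adjusted p = 0.303 and 0.266), and the others had one above 0. Over the 25, the log2FC was below 0 for 12 and above 0 for 13, against 51.6% and 48.4% of all genes tested. The 2 past the threshold, Sqstm1 and Slc38a2, have roles outside serine and folate metabolism. Sqstm1 (GRCm38 chr11:50199366-50210827), which encodes the autophagy receptor p62, had 333, 298 and 357 CPM in resistant hearts and 445, 410 and 528 CPM in sensitive hearts. All sensitive hearts were above all resistant ones. This gave a log2FC of 0.49 (standard error 0.09, adjusted p = 0.0216). Sqstm1 lost its call without heart 368, 369 or 381 (adjusted p = 0.0738, 0.0672 and 0.0637), where its log2FC was 0.50, 0.42 and 0.38. It shares 580 exon bases with Mrnip on the opposite strand, which had 8 to 23 counts per heart.

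Slc38a2 (GRCm38 chr15:96687392-96699730), a transporter of neutral amino acids that is induced when amino acids are scarce, had 183, 177 and 219 CPM in resistant hearts and 268, 257 and 238 CPM in sensitive hearts. The genotypes did not overlap, although heart 370 came near to heart 381. The difference amounted to a log2FC of 0.40 (standard error 0.09, adjusted p = 0.0318). Slc38a2 lost its call without heart 368, 369, 379 or 380 (adjusted p = 0.154, 0.103, 0.108 and 0.0915), where its log2FC was 0.36, 0.34, 0.36 and 0.40. The third gene by p of this list was Vldlr, a lipoprotein receptor, with a log2FC of 0.29 that did not pass in edgeR (adjusted p = 0.0704). It passed in DESeq2 (adjusted p = 0.00119) and in edgeR with a robust prior (0.0453) or with all genes with a count tested (0.00416), and the adjusted p was at most 0.22 over the alternatives.

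Of 29 genes tested for serine synthesis and one-carbon enzymes, a list that holds Psat1, Shmt2 and Mthfd2 as well, 0 passed in edgeR, against 1.44% of all genes tested. An unadjusted p under 0.05 was found for 2 (6.9%, against 14.5% of all genes tested), and DESeq2 called 0 of the 19 to which it gave an adjusted p. The median log2FC was 0.01. Phgdh, the first enzyme of serine synthesis, had 15, 21 and 23 counts in resistant hearts and 26, 40 and 35 in sensitive hearts. All sensitive hearts were higher, opposite in direction to Psat1, the next enzyme of the same pathway. At these counts the log2FC of Phgdh, 0.85, had a standard error of 0.38 (adjusted p = 0.315). In the methyl donor branch no gene passed, with a log2FC of 0.21 for Mat2b, 0.11 for Mat2a and 0.22 for Ahcy (adjusted p = 0.156, 0.698 and 0.459). Mat2a, which makes S-adenosylmethionine, had the highest level of the list per length (45.2 FPKM). Gldc, Folr1 and Ftcd were under the filter, with at most 10, 5 and 3 counts in any heart.

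The cytosolic aminoacyl-tRNA synthetases, which ATF4 is known to induce as a group, gave 0 calls of 20 in edgeR, against 1.44% of all genes tested. An unadjusted p under 0.05 was found for 0 of the 20, against 14.5% of all genes tested, and DESeq2 called 0. The log2FC was above 0 for 15 of the 20, against 48.4% of all genes tested, with a median of 0.06. The smallest p-values were those of Qars, Vars and Farsa, with log2FC of 0.15, 0.19 and 0.20 (adjusted p = 0.372, 0.374 and 0.444). Nars was the most abundant per length (32.7 FPKM), with a log2FC of 0.07.

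The unfolded protein response of the endoplasmic reticulum shares the kinase Eif2ak3 and the factor CHOP with the integrated stress response, and 1 of its 21 genes rose and 0 fell, against 0.78% and 0.659% of all genes tested. Herpud1 (GRCm38 chr8:94386438-94395377), which takes part in the degradation of misfolded proteins, had 112, 124 and 125 CPM in resistant hearts and 150, 169 and 205 CPM in sensitive hearts. The genotypes did not overlap, and heart 381 was the highest. Herpud1 thus had a log2FC of 0.54 (standard error 0.10, adjusted p = 0.0148), and the call was lost without heart 368 (log2FC 0.49, adjusted p = 0.0738). Hspa5, the main chaperone of the compartment and the most abundant gene of the list per length (141 FPKM), had 630, 587 and 776 CPM in resistant hearts and 487, 558 and 539 CPM in sensitive hearts. All sensitive hearts were lower, opposite in direction to Herpud1. Hspa5 had a log2FC of -0.33 (standard error 0.10) and did not pass in edgeR (adjusted p = 0.111), while it passed in DESeq2 (adjusted p = 0.0123) and in edgeR when all genes with a count were tested (0.000824), with at most 0.28 over the alternatives. Without heart 370 the log2FC of Hspa5 was -0.20. Manf, a secreted factor of the same response, had a log2FC of -0.37 (adjusted p = 0.152, and 0.0167 when all genes with a count were tested). A log2FC below 0 was found for 14 of the 21 genes, against 51.6% of all genes tested, and an unadjusted p under 0.05 for 5 (23.8%, against 14.5%).

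Mitochondrial chaperones and proteases, the classical targets of the mitochondrial unfolded protein response, gave 0 calls of 15 in edgeR, against 1.44% of all genes tested. An unadjusted p under 0.05 was found for 2 (13.3%, against 14.5% of all genes tested). DESeq2 called 1, the protease subunit Spg7, and 409 genes in total, where edgeR called 214. The log2FC was above 0 for 13 of the 15, against 48.4% of all genes tested, and the median was 0.10 against -0.01 for all genes. Spg7 had a log2FC of 0.25 (adjusted p = 0.0985 in edgeR and 0.0254 in DESeq2, with up to 0.286 over the alternatives), and Clpx, an unfoldase, one of 0.23 (adjusted p = 0.21). Hspa9, the chaperone of protein import, was the most abundant per length (214 FPKM) with a log2FC of 0.16.

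**Figure D2:**
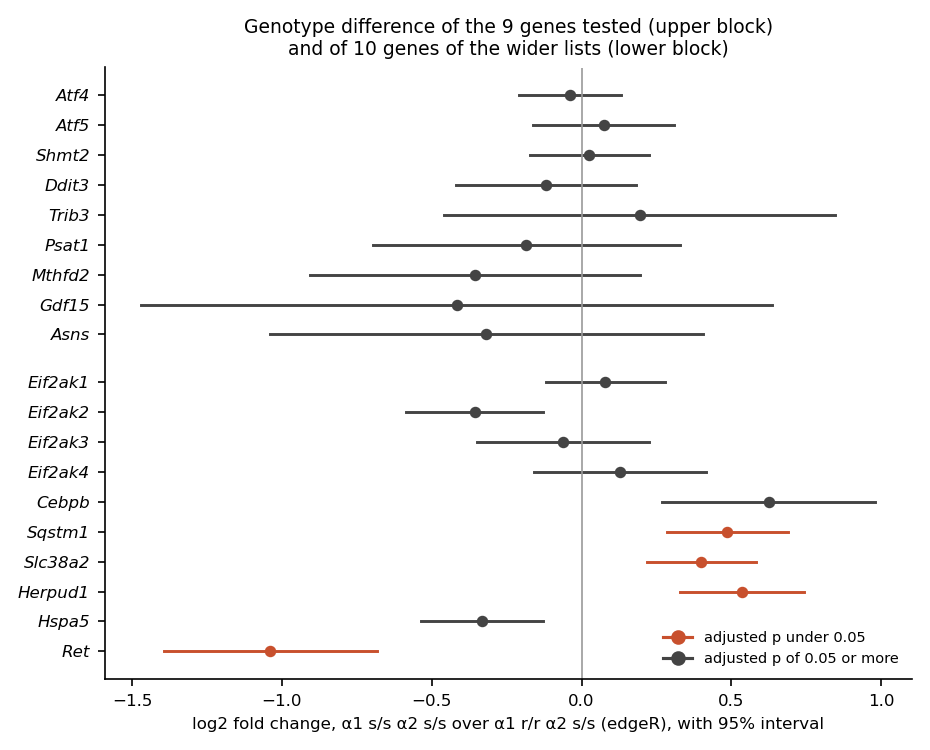
The log2FC of sensitive over resistant hearts (horizontal axis, edgeR) with its 95% interval, for the 9 genes tested (upper block) and 10 genes of the wider lists (lower block), in orange where the adjusted p was under 0.05. All 9 intervals of the upper block include 0, from the narrow one of Atf4 (-0.21 to 0.13) to the wide one of Gdf15 (-1.47 to 0.63), and in the lower block Sqstm1, Slc38a2, Herpud1 and Ret passed the threshold.

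The receptors for FGF21 and GDF15 were examined beside the hormones. Klb, the co-receptor that FGF21 needs, had 0, 0 and 6 counts in resistant hearts and 2, 5 and 0 in sensitive hearts and was not tested. Gfral, the receptor of GDF15, had 0 counts in every heart. Both receptors were thus at or near 0 in these hearts, as was Fgf21 itself. Fgfr1 was the most abundant receptor gene of the list per length (3.52 FPKM), with a log2FC of -0.09. Fgfr2 and Fgfr3 had log2FC of -1.06 and 0.25 (adjusted p = 0.378 and 0.561), with 7 to 32 counts per heart for Fgfr2. With one heart left out Fgfr2 lay between -1.48 (without heart 381) and -0.57 (without heart 370), and Fgfr3 between 0.09 (without heart 381) and 0.43 (without heart 379).

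Of the 4 receptor genes tested, 1 fell and 0 rose, against 0.659% and 0.78% of all genes tested. Ret (GRCm38 chr6:118151745-118197718, minus strand), the tyrosine kinase through which GFRAL and other receptors of the GDNF family signal, had 188, 222 and 196 counts in resistant hearts and 104, 97 and 78 in sensitive hearts. The highest sensitive heart was far below the lowest resistant heart. The level was 9.81 ± 0.815 CPM in resistant and 4.77 ± 0.629 CPM in sensitive hearts (SD, n = 3). Ret had a log2FC of -1.04 (standard error 0.17, 95% interval -1.39 to -0.68, adjusted p = 0.00594), and it passed the threshold with each of the 6 hearts left out in turn. Per length the level of Ret was 1.45 FPKM in resistant and 0.705 FPKM in sensitive hearts.

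**Figure D3:**
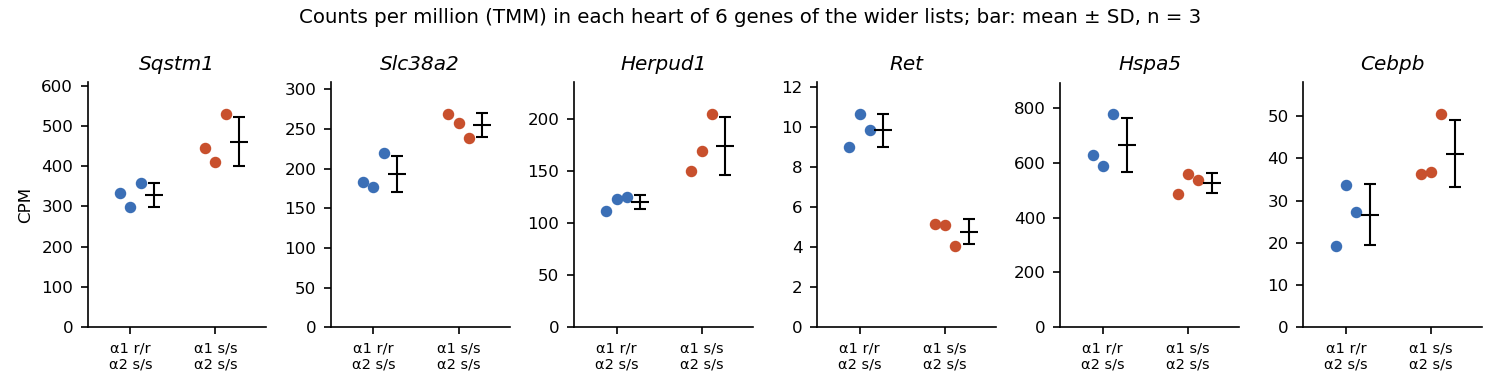
Normalized counts (CPM, scaled to library size by TMM, vertical axis from 0) in each heart of Sqstm1, Slc38a2, Herpud1 and Ret, which passed the threshold, and of Hspa5 and Cebpb, which did not, with the mean ± SD of 3 hearts as a bar beside the points. The genotypes do not overlap for any of these 6 genes, with Ret at 8.98 to 10.6 CPM in resistant and 4.05 to 5.16 CPM in sensitive hearts. The 6 were chosen with their p-values in these data known, and 20% of all genes tested are without overlap.

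Markers of the other cell types that a whole heart holds were set beside these values, and their part in the differences of Sqstm1, Slc38a2, Herpud1 and Ret was not tested. No marker list held a gene past the threshold in edgeR, while DESeq2 called 2 of the macrophage markers and 1 each of the atrial, fibroblast and smooth muscle lists. In total DESeq2 called 409 genes, where edgeR called 214 (1.44% of the genes tested). Over all genes tested, 51.6% had a log2FC below 0, 48.4% one above 0 and 14.5% an unadjusted p under 0.05. All 6 macrophage markers had a log2FC below 0 (median -0.45), 3 of them at an unadjusted p under 0.05. Summed, they had 219, 294 and 191 CPM in resistant hearts and 195, 185 and 148 CPM in sensitive hearts, with C1qa the most abundant per length (42.4 FPKM) and none at 0. The genotypes overlapped in this sum. All 4 atrial markers were also below 0 (median -0.47, 2 at an unadjusted p under 0.05), with sums of 191, 246 and 157 CPM in resistant hearts and 166, 139 and 159 CPM in sensitive hearts, led by Nppa (102 FPKM) and with none at 0.

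All 5 markers of smooth muscle cells and pericytes had a log2FC below 0 (median -0.33, 2 at an unadjusted p under 0.05, against 51.6% and 14.5% of all genes tested), although Rgs5, the most abundant of them per length, had one of only -0.0012. Their sums were 999.5, 952 and 916 CPM in resistant hearts and 965, 943 and 843 CPM in sensitive hearts, with Rgs5 at 165 FPKM per length and none at 0. The genotypes overlapped. Of the fibroblast markers 4 of 6 were below 0 (median -0.20, 3 at an unadjusted p under 0.05), with sums of 920, 959 and 844 CPM in resistant hearts and 921, 884 and 814 CPM in sensitive hearts, led by Dcn (93.1 FPKM) and with none at 0. Of the endothelial markers 3 of 5 were below 0 (median -0.06, 1 at an unadjusted p under 0.05), with sums of 961, 1016 and 861 CPM against 910, 903 and 743 CPM, led by Cdh5 (55.7 FPKM) and with none at 0. In these sums, too, the genotypes overlapped. Single markers without overlap, chosen after their values were seen, were Mrc1 among the macrophage genes (log2FC -0.52, adjusted p = 0.0549), Myl7 among the atrial genes (-0.55, 0.0799), Col1a1 and Lum among the fibroblast genes (-0.41 and -0.26, 0.0743 and 0.155), Kdr among the endothelial genes (-0.50, 0.0694) and Plin1 among the adipocyte genes (1.32, 0.266). In this order they were 1 of 6, 1 of 4, 2 of 6, 1 of 5 and 1 of 3 genes tested. The other marker lists held none, and 20% of all genes tested were without overlap. Dcn and Pdgfra of the fibroblast genes (0.06 and 0.14) and Pecam1 and Tie1 of the endothelial genes (0.0016 and 0.12) had a log2FC above 0, with overlap.

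Blood, fat and skeletal muscle were marked as follows. The 5 erythroid markers all had a log2FC above 0 (median 0.66, 0 at an unadjusted p under 0.05 in edgeR or DESeq2), with sums of 954, 1272 and 537 CPM in resistant hearts and 796, 3187 and 401 CPM in sensitive hearts, led by Hbb-bs (897 FPKM). Heart 380 was the highest by far and the other sensitive hearts lay within or below the resistant range. Of the adipocyte markers 3 were tested, all with a log2FC above 0 (median 0.93, 1 at an unadjusted p under 0.05, with no adjusted p from DESeq2), and the list summed to at most 3.77 CPM in any heart, with Adipoq the most abundant per length (0.439 FPKM) and Ucp1 at 0. Lymphocyte and skeletal muscle fibre markers summed to at most 7.52 and 1.04 CPM, with Myh4 at 0. The 6 cardiomyocyte markers had a median log2FC of 0.08, with 2 of 6 below 0 and 0 at an unadjusted p under 0.05 in edgeR, where DESeq2 gave 1.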

How the data were processed

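Total RNA from 6 whole hearts, 3 per genotype, was sequenced and mapped by a company, and the authors deposited raw counts per gene. The submitters' processing notes name fastp, STAR, featureCounts and mm10, without versions, and the strand setting is not given in the sources used here. The authors' own comparison, a table of means, fold changes and p-values, was not used. The 10 genes and the lists were chosen with earlier results of these data known. Genes named from each list were those past the threshold, the 3 of smallest p and the one of highest level per length, besides the eIF2 kinases, Ppp1r15a, Ppp1r15b, Klb and Gfral. Outside this rule, Gldc, Folr1 and Ftcd were named as genes under the filter, and Impact, Gcn1l1, Oma1 and Dele1 to describe their list. Pycr1 and Aldh18a1 were named to give the direction within their list, and Xbp1, Atf3, Nupr1 and Oma1 as genes shared between lists.

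Counts were analysed in R 4.3.3 with edgeR 4.0.16 (TMM, filterByExpr with minimum count 10 and minimum total 15, quasi-likelihood test, Benjamini-Hochberg adjustment over 14866 genes, threshold 0.05). The standard error was the size of the log2 fold change divided by the root of F. Levels per length (FPKM) used the gene length in the table and TMM library sizes. The code was tested on simulated data. The alternatives were DESeq2 1.42.0, RLE and upper-quartile factors, other filters, a robust prior, leaving out mitochondrially encoded and haemoglobin genes, and leaving out each heart. Hearts of one genotype differed by more than counting error (chi-square per gene 6.85 to 13.1, where counting error gives about 1), so each was 1 replicate. Floors cover counting error only.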

Additional observations from a re-analysis of the deposited data

How the results depend on the processing

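No gene of the set that received an adjusted p passed the threshold in any of the 14 fits. DESeq2 gave one to 4 genes, and the filter of at least 10 counts in every heart left out Gdf15. The lowest adjusted p of any gene of the set in an alternative was 0.526, for Mthfd2 without heart 380. The count over all genes, 214, became 409 in DESeq2 and 618 when all genes with a count were tested, and 80 to 158 with one heart left out. The count of list genes, 4, became 7 in DESeq2, 9 when all genes with a count were tested and 1 to 4 with one heart left out. The cause of these shifts was not tested, beyond the smaller number of hearts in the latter fits. The core element was in the promoters of 3 of the genes and its exact form in 1. The median log2 fold change of the 9 genes of the set that were tested was -0.17 to -0.02 with one heart left out. Sign changes occurred only among small differences and only when a heart was left out. The log2 fold change then ranged from -0.0892 to 0.0254 for Atf4, from -0.0421 to 0.14 for Atf5, from -0.0534 to 0.10 for Shmt2, from -0.13 to 0.0251 for Eif2ak3, from -0.0396 to 0.23 for Ppp1r15a, from -0.13 to 0.0545 for Ppp1r15b and from -0.0033 to 0.22 for Mat2a. Without a change of sign, others that moved by more than 1.5 times were Eif2ak1 (0.02 to 0.14), Eif2ak4 (0.02 to 0.20), Atf6 (0.11 to 0.23), Ahcy (0.14 to 0.41), Nars (0.02 to 0.11), Clpx (0.14 to 0.29) and Fgfr1 (-0.14 to -0.0023), besides those named with their hearts above. Among all alternatives for the named genes, 500 kept direction and side of the threshold, 9 gained the threshold, 8 lost it and 7 changed sign. Trib3, Asns, Mthfd2, Psat1 and Gdf15 had 7 to 78 counts per heart. In at least one genotype the spread between hearts exceeded counting error for Atf4, Atf5, Ddit3, Trib3, Asns, Psat1, Shmt2 and Gdf15, as in Atf5 (13.7% against 4.22% in sensitive hearts), and for Mthfd2 it did not. Fgf21 was under the floor of 3 counts in every heart.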

Other observations

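The immediate early genes, which respond within minutes to handling of tissue, differed between hearts of one genotype. Egr1 had 1149, 393 and 207 counts in resistant hearts and 1039, 196 and 144 in sensitive hearts, and Fos had 425, 177 and 84 against 312, 111 and 77. Hearts 368 and 379 were the highest of their genotype for both. Of the 7 genes of the list, heart 379 was the highest sensitive heart for 7 and heart 368 the highest resistant heart for 5. The others were Jun, lowest in heart 368 among resistant hearts (62.0 CPM, against 71.5 and 72.4 CPM in hearts 369 and 370), and Dusp1, highest in heart 369 (98.5 CPM, against 93.0 CPM in heart 368). The 7 genes of that list summed to 278, 236 and 187 CPM in resistant hearts and 317, 191 and 181 CPM in sensitive hearts, with a median log2 fold change of -0.04 and 0 at an unadjusted p under 0.05 in edgeR or DESeq2; Dusp1 was the most abundant per length (32.1 FPKM) and none was at 0. In the same hearts Ppp1r15a had 508, 349 and 419 counts against 495, 429 and 363, and Atf3, a stress factor downstream of ATF4, had 230, 226 and 164 against 310, 168 and 177. Hearts 368 and 379 were again the highest of their genotype for both. Atf4 was lowest of its genotype in heart 368, at 49.5 CPM, and at 52.7 CPM in heart 379. Egr1, Fos, Jun and Atf3 were chosen after their values were seen, and the relation was not tested.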
